A study of Mus musculus with 34 samples.

Results

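The 7 genes described here code for components and receptors of the complement system, and were taken by symbol from a deposited table of 16389 genes. They are *C1qa*, *C1qb* and *C1qc*, which code for the chains of C1q, *C3* and *C4b*, which code for the central cleaved components, and *C3ar1* and *C5ar1*, which code for receptors of the released fragments. All 7 were present, and 6 of them passed the filter on low values that was applied before testing (1 FPKM in at least 3 of 34 libraries). FPKM counts fragments relative to transcript length and to the depth of the library, so that levels of different genes can be set side by side. *C5ar1* reached 1 FPKM in no library and is described by its levels.

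Complement is a cascade of proteins that tag cells and debris for removal. C1q binds its targets and starts the classical pathway, C4 and C3 are then cleaved, and the small fragments C3a and C5a act on the receptors made from *C3ar1* and *C5ar1*. In the brain, C1q is made mostly by microglia and macrophages, C4 by astrocytes and oligodendrocytes among others, and complement is known for its part in the removal of synapses.

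The 34 libraries were bulk RNA-seq of 12 male C57BL/6 mice, each library being 1 region of 1 mouse, and cover the cortex, the hippocampus and the thalamus, which was dissected together with the striatum. WT CON mice were neither irradiated nor transplanted (3 cortex, 4 hippocampus and 4 thalamus libraries). GFP-BM CON mice received 1000 cGy of whole-body irradiation and bone marrow from CAG-EGFP donors, in which a ubiquitous promoter drives the green label (4, 4 and 3 libraries). GFP-BM REPOP mice were irradiated and transplanted likewise, then 3.5 months later fed PLX3397, an inhibitor of CSF1R that removes microglia, at 600 ppm for 14 days and kept on control chow for 6 months, a scheme meant to replace microglia with bone marrow-derived cells (4, 4 and 4 libraries). Irradiation and transplant are shared by both GFP-BM groups, so these cannot be told apart from each other against WT CON, and GFP-BM CON mice received no PLX3397. The legend and the methods of the study give different ages at irradiation.

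The libraries held between 17085018 and 26010509 reads as recovered from the table (median 21367227). Set against WT CON, GFP-BM REPOP libraries had mean levels of 10 microglial markers lower by 0.58 to 0.76 on the log2 scale, and those of 8 genes that the study names for engrafted cells were higher by 1.75 to 2.10. The latter were picked by the study on these samples and are no independent evidence of the labels. Of the microglial markers, *Siglech*, *Slc2a5* and *Crybb1* are also among the genes that the study reports as lowered in these samples. The fall of that list is therefore not fully independent of the study's choice either. In 3 hippocampus libraries (WT CON replicate 2, GFP-BM REPOP replicates 1 and 4), the mean of 6 hippocampus markers was 0.75 to 1.08, against 2.72 to 3.98 in the other hippocampus libraries and 0.61 to 2.98 in cortex and thalamus libraries. For single genes named below, fitted hippocampus differences of GFP-BM REPOP from WT CON are therefore also given without these 3. Other tissue markers still varied among the libraries kept. Summed striatum markers were 325, 395 and 47.8 FPKM in WT CON replicates 1, 3 and 4. They were 140 and 66.4 in GFP-BM REPOP replicates 2 and 3. Summed choroid plexus markers were 6508, 766 and 79.1, and 288 and 174, in the same order. Over all hippocampus libraries, cortex markers were higher in GFP-BM REPOP than WT CON by 0.88 (two-sided exact permutation p = 0.029, not adjusted).

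On mouse build GRCm38.p6, the 3 C1q genes lie side by side on chromosome 4, *C1qb* at 136880126–136886200, *C1qc* at 136889801–136892936 and *C1qa* at 136895916–136898844, within 18719 bases. *C3* lies on chromosome 17 at 57203967–57228136 and *C4b* on chromosome 17 at 34728139–34743902. *C3ar1* lies on chromosome 6 at 122847140–122856157 and *C5ar1* on chromosome 7 at 16246743–16259540. All 7 are protein coding genes. Promoter sequence of RefSeq was at hand for 5 of the 7 (*C1qb*, *C1qc*, *C3*, *C3ar1* and *C5ar1*).

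The promoters of the C1q genes were planned to be shown, and that of *C1qa* was not at hand. Those of *C1qb* and *C1qc*, whose levels moved together as described below, are shown. Both held 1 match to the core of the motif of PU.1, the factor that myeloid cells depend on. Each run is the 250 bases before an annotated start, on the minus strand of chromosome 4, with the match in capitals. For *C1qc* that start lies inside the gene span given above, so the last bases of its run overlap the span.
C1qb (chr4:136886201-136886450): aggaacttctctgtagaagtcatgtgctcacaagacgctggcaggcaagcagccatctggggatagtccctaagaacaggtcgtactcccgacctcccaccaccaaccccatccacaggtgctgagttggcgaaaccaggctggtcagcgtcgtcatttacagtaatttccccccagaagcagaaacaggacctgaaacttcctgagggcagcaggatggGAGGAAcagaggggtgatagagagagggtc
C1qc (chr4:136892915-136893164): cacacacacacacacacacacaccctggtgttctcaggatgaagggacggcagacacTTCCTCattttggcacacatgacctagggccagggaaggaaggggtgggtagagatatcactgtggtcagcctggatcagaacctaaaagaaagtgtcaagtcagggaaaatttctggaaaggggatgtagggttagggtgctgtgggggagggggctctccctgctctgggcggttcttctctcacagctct

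The *C1qb* match (GAGGAA) began at position -30 from the start, and the *C1qc* match lay on the opposite strand (TTCCTC) at position -193. Among 32851 promoters of the same length, 23.3% held GAGGAA on either strand. An interferon element core (GAAANNGAA, in 7.13% of promoters), a STAT element (TTCNNNGAA, in 7.02%) and a MAF site (TGCTGAC, in 3.81%) were searched on both strands as well. The only other match among the 5 members was an interferon element core in *C5ar1* (TTCCTTTTC at position -66).

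*C1qa* had the highest mean of the 7 members in each of the 9 groups. Over the 34 libraries, *C1qa* ranged from 36.7 to 87.7 FPKM (median 51.5), *C1qc* from 29.2 to 67.9 (median 37.9) and *C1qb* from 12.2 to 32.3 (median 18.6). Every library had *C1qa* above *C1qc* and *C1qc* above *C1qb*. *C4b* ranged from 8.13 to 58.1 FPKM (median 19.0) and overlapped all 3 C1q genes. *C3ar1* (0.298 to 1.97 FPKM), *C3* (0.102 to 2.97) and *C5ar1* (0.198 to 0.606) were far lower and overlapped one another.

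**Figure D1:**
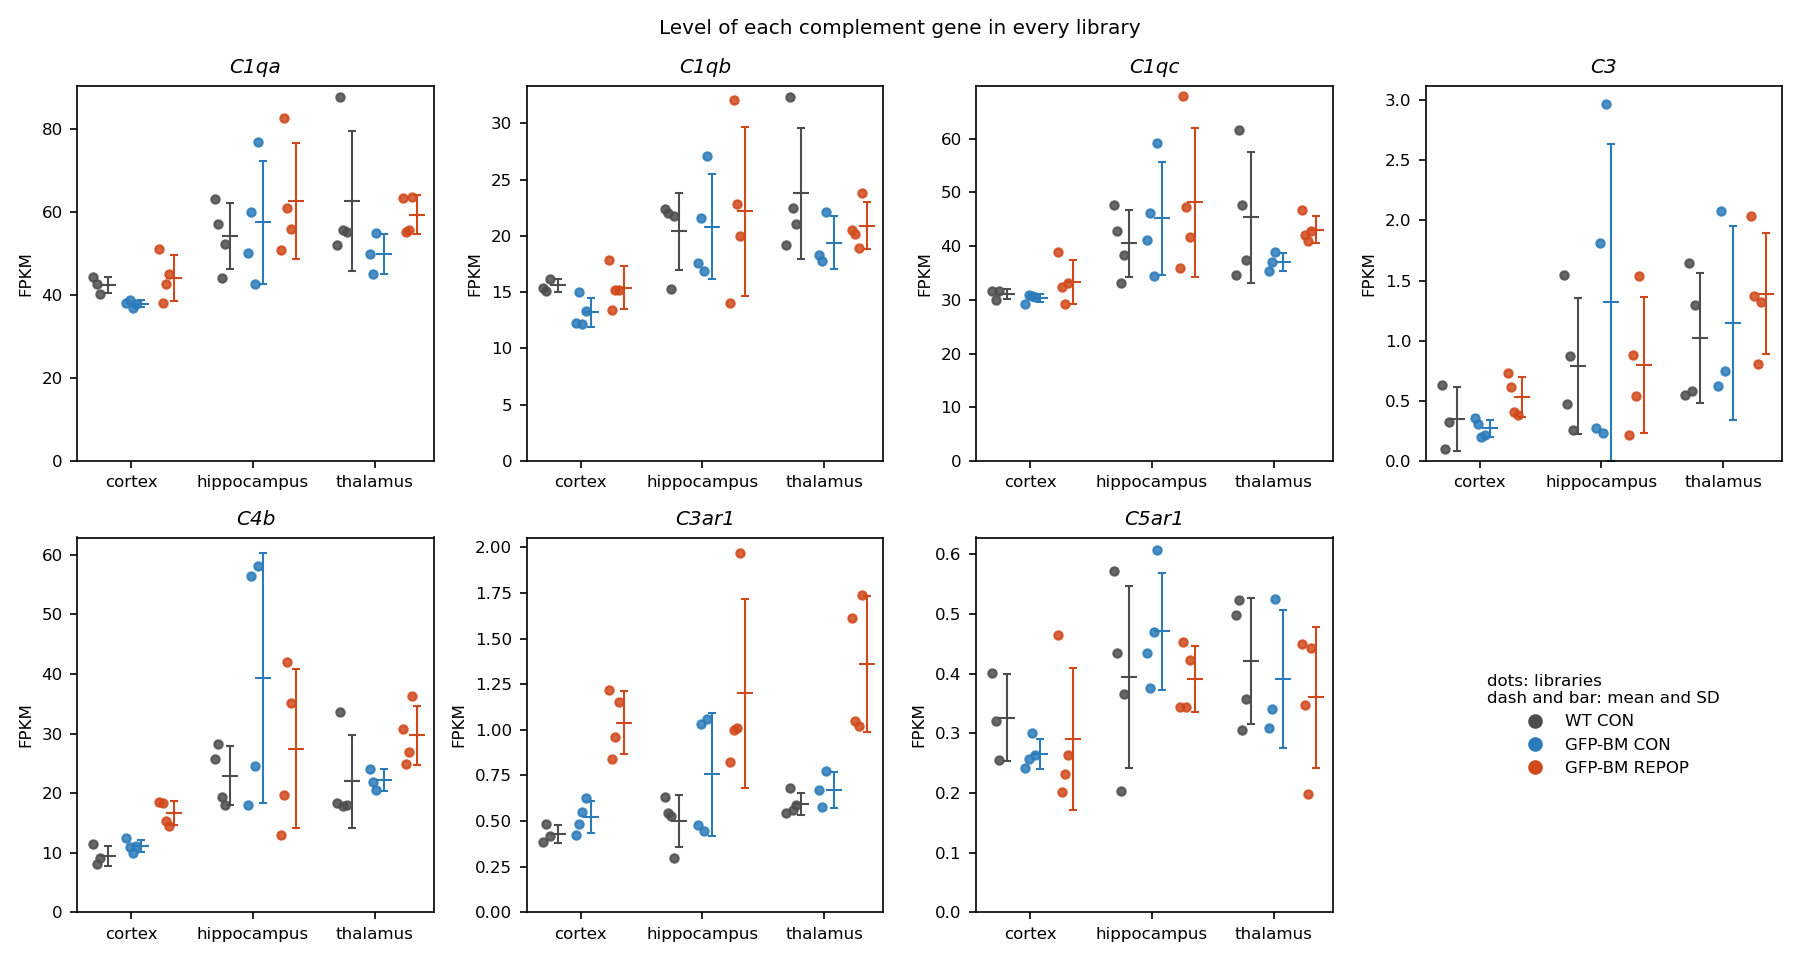
FPKM of each of the 7 members in every library, by region and treatment, with the bars giving mean and SD (n = 3 or 4). The GFP-BM REPOP libraries sit above all WT CON libraries for C3ar1 in each region and for C4b in the cortex, and the C1q genes overlap between these groups.

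The question put to each region was whether complement transcripts differ once bone marrow-derived cells have replaced microglia, and how much of a difference is present after irradiation and transplant alone. In each region, both irradiated groups were set against WT CON and against each other, so the 3 comparisons share their samples. Differences are given on the scale of log2(FPKM + 0.1), on which those of genes near 0.1 FPKM are understated, with the standard error (SE) of limma and a Benjamini-Hochberg adjusted p over all 15053 genes tested.

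*C3ar1*, which codes for the receptor of C3a, stood above WT CON in the GFP-BM REPOP libraries of all regions by a similar amount, and passed the test in the cortex. In the cortex, WT CON libraries held 0.386, 0.485 and 0.420 FPKM, GFP-BM CON libraries 0.424, 0.485, 0.550 and 0.628, and GFP-BM REPOP libraries 1.22, 0.842, 0.961 and 1.15. All 4 GFP-BM REPOP libraries lay above the other 7, which overlapped each other. The difference from WT CON was 1.10 ± 0.19 (SE, 2.14-fold, 95% interval 1.60 to 2.87, adjusted p = 0.023 by limma).

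In the hippocampus, *C3ar1* stood at 0.634, 0.543, 0.529 and 0.298 FPKM in WT CON, at 0.480, 1.03, 0.448 and 1.06 in GFP-BM CON, and at 0.823, 1.00, 1.01 and 1.97 in GFP-BM REPOP. GFP-BM REPOP lay above WT CON without overlap, while GFP-BM CON libraries fell into a lower and a higher pair and overlapped both. The difference of GFP-BM REPOP from WT CON was 1.07 ± 0.36 (2.11-fold, 95% interval 1.22 to 3.63, unadjusted p = 0.011 and adjusted p = 0.42 by limma), and without the 3 libraries low in hippocampus markers it was 0.96 (adjusted p = 0.85).

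In the thalamus, *C3ar1* was at 0.546, 0.681, 0.559 and 0.588 FPKM in WT CON, 0.670, 0.575 and 0.773 in GFP-BM CON, and 1.61, 1.05, 1.02 and 1.74 in GFP-BM REPOP. Again all GFP-BM REPOP libraries lay above all others. The difference from WT CON was 1.04 ± 0.21 (2.06-fold, 95% interval 1.49 to 2.83, adjusted p = 0.051 by limma), just outside the threshold, and it was 0.46 (adjusted p = 0.41) after each library was corrected for GC content and gene length. Without WT CON replicate 1 it was 1.01 with an adjusted p of 0.026.

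Against GFP-BM CON, *C3ar1* was higher in GFP-BM REPOP by 0.88 ± 0.18 in the cortex (unadjusted p = 3.8e-04, adjusted p = 0.18 by limma), by 0.62 ± 0.36 (adjusted p = 0.5) in hippocampus libraries, and by 0.89 ± 0.23 in thalamus libraries (unadjusted p = 0.0026, adjusted p = 1). GFP-BM CON differed from WT CON by 0.22, 0.46 and 0.15 in the 3 regions (adjusted p of 0.46 to 0.65). Without the 3 libraries low in hippocampus markers, the hippocampus values were 0.46 against GFP-BM CON (adjusted p = 0.67) and 0.50 for GFP-BM CON against WT CON (adjusted p = 0.5). No difference past the threshold was thus found for *C3ar1* in either comparison with GFP-BM CON. The gene rests on 26 to 179 reads per library, and of the 11 libraries that reached 1 FPKM, 9 were GFP-BM REPOP, 2 GFP-BM CON and none WT CON. It passed the filter through the group in which it was high, so its presence among the genes tested is not independent of its difference. The cortex call was lost without WT CON replicate 1, 2 or 3 (adjusted p of 0.099, 0.058 and 0.084) and without GFP-BM REPOP replicate 3 or 4 (0.063 and 0.073), with only the 2 groups compared or all 9 groups in the fit (0.086 and 0.14), with quantile normalization (0.065) and with a replicate block (0.13).

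*C5ar1*, which codes for the receptor of C5a, rested on 9 to 35 reads per library, and its groups overlapped in each region. Its group means lay between 0.265 FPKM (GFP-BM CON cortex) and 0.471 FPKM (GFP-BM CON hippocampus). In the cortex it was 0.326 ± 0.0730 FPKM (SD, n = 3) in WT CON, 0.265 ± 0.0249 in GFP-BM CON (n = 4) and 0.290 ± 0.119 in GFP-BM REPOP (n = 4). In a fit of all genes without the filter, its differences over the 9 comparisons lay between -0.21 and 0.25 with adjusted p of at least 0.59 by limma. A difference of the size of that of *C3ar1* was not seen for *C5ar1*, and smaller ones were not detectable at this depth.

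*C4b*, the component cleaved ahead of C3 in the classical pathway, rose in GFP-BM REPOP cortex. Cortex levels were 11.4, 8.13 and 9.10 FPKM in WT CON, 12.5, 10.9, 10 and 11.1 in GFP-BM CON, and 18.6, 18.4, 15.3 and 14.5 in GFP-BM REPOP. The GFP-BM REPOP libraries lay above all others, and WT CON overlapped GFP-BM CON. The rise over WT CON was 0.81 ± 0.12 (1.75-fold, 95% interval 1.45 to 2.11, adjusted p = 0.012 by limma). Over GFP-BM CON, the difference was 0.58 ± 0.11 (unadjusted p = 2.9e-04, adjusted p = 0.16), and between GFP-BM CON and WT CON it was 0.23 ± 0.12 (adjusted p = 0.41). The call held without each of the 11 cortex libraries in turn, and was lost with only the 2 groups compared in the fit (adjusted p = 0.062) and with all 9 groups in one fit (adjusted p = 1).

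In the hippocampus, *C4b* differed more between mice of a group than between groups. Its levels were 25.8, 28.3, 19.4 and 18.1 FPKM in WT CON, 18.1, 56.5, 24.5 and 58.1 in GFP-BM CON, and 13, 19.7, 42.0 and 35.2 in GFP-BM REPOP. The highest levels were those of 2 GFP-BM CON libraries, and all groups overlapped. GFP-BM REPOP differed from WT CON by 0.14 ± 0.42 (95% interval -0.78 to 1.07, adjusted p = 0.92 by limma) and from GFP-BM CON by -0.48 ± 0.42 (adjusted p = 0.64). Without the 3 libraries low in hippocampus markers, the first was 0.47 (adjusted p = 0.87) and the second -0.27 (adjusted p = 0.83).

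In the thalamus, *C4b* was at 18.4, 33.6, 17.8 and 18.1 FPKM in WT CON, 24.1, 21.9 and 20.6 in GFP-BM CON, and 30.7, 24.9, 26.9 and 36.3 in GFP-BM REPOP. WT CON replicate 2 was the one WT CON library inside the range of GFP-BM REPOP. The difference was 0.47 ± 0.20 (95% interval 0.03 to 0.92, unadjusted p = 0.039, adjusted p = 0.19 by limma), and without that library it was 0.70 (adjusted p = 0.037). *C4b* has a near-identical copy, *C4a*, and reads could be split between them by the counting, so that the level of either gene is uncertain. The region-centred levels of the pair had a Pearson r of 0.80 over 34 libraries.

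*C3*, the component on which all complement pathways meet, varied widely between mice and showed no difference past the threshold. In the hippocampus it stood at 1.55, 0.473, 0.869 and 0.259 FPKM in WT CON, 0.273, 1.81, 0.235 and 2.97 in GFP-BM CON, and 0.215, 0.883, 0.543 and 1.54 in GFP-BM REPOP. Each group held libraries more than 5 times apart, and the same 2 GFP-BM CON libraries that were highest for *C4b* were highest for *C3*. In the cortex it was 0.350 ± 0.265 FPKM (SD, n = 3) in WT CON, 0.270 ± 0.0737 in GFP-BM CON (n = 4) and 0.534 ± 0.166 in GFP-BM REPOP (n = 4), and in the thalamus 1.02 ± 0.542 (n = 4), 1.15 ± 0.806 (n = 3) and 1.39 ± 0.504 (n = 4). GFP-BM REPOP differed from WT CON by 0.65 ± 0.40, -0.00 ± 0.77 and 0.48 ± 0.44 in the cortex, hippocampus and thalamus (adjusted p of 0.49, 1 and 0.45 by limma). The 95% interval in the hippocampus ran from -1.69 to 1.68, so that a change of 3-fold in either direction could not have been told from none. Without the 3 libraries low in hippocampus markers the hippocampus difference was -0.07 ± 1.02 (adjusted p = 0.99). *C3* rested on 12 to 284 reads per library.

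The C1q genes did not pass the test in any comparison of treatments. *C1qa* was at 44.2, 42.5 and 40.3 FPKM in the cortex of WT CON mice, 37.9, 38.7, 36.7 and 37.7 in GFP-BM CON, and 51.1, 38.0, 42.5 and 44.9 in GFP-BM REPOP. GFP-BM REPOP overlapped both groups, while GFP-BM CON lay below WT CON without overlap. The differences of GFP-BM REPOP from WT CON in the cortex were 0.05 ± 0.08 for *C1qa*, -0.02 ± 0.10 for *C1qb* and 0.09 ± 0.08 for *C1qc* (adjusted p of 0.83, 0.95 and 0.62 by limma). For *C1qa* the 95% interval of the fold was 0.92 to 1.17.

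In the hippocampus, *C1qa* was at 63.0, 57.0, 44.1 and 52.3 FPKM in WT CON, 50.1, 60.0, 42.7 and 76.7 in GFP-BM CON, and 50.7, 82.6, 61.0 and 55.9 in GFP-BM REPOP, and in the thalamus at 51.9, 87.7, 55.7 and 55.0, at 49.8, 45.1 and 54.8, and at 63.2, 55.0, 55.6 and 63.6. Neither region separated GFP-BM REPOP from WT CON. Differences of GFP-BM REPOP from WT CON were 0.20, 0.08 and 0.22 for *C1qa*, *C1qb* and *C1qc* in hippocampus libraries and -0.05, -0.16 and -0.04 in thalamus libraries (adjusted p of 0.47 to 0.92 by limma). Without the 3 libraries low in hippocampus markers, the hippocampus values were 0.43, 0.47 and 0.53 (adjusted p = 0.85 each). The thalamus values turned positive, at 0.22, 0.10 and 0.23, after correction for GC content and length (adjusted p of 0.1 to 0.5).

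After irradiation and transplant alone, *C1qa* and *C1qb* lay below WT CON in the cortex without overlap. *C1qb* was at 13.2 ± 1.31 FPKM in GFP-BM CON (SD, n = 4) and 15.6 ± 0.553 in WT CON (n = 3), a difference of -0.24 ± 0.10 (unadjusted p = 0.026, adjusted p = 0.24 by limma), and *C1qa* differed by -0.16 ± 0.08 (adjusted p = 0.35). GFP-BM REPOP was then above GFP-BM CON by 0.22 ± 0.07 for *C1qa* and 0.22 ± 0.09 for *C1qb* (unadjusted p of 0.013 and 0.028, adjusted p of 0.87 and 1). None of these passed the threshold. The mean of 10 myeloid genes shared by microglia and bone marrow-derived cells moved alongside, by -0.19 between GFP-BM CON and WT CON cortex (8 of 9 tested genes below 0, exact permutation p = 0.057) and by 0.28 for GFP-BM REPOP cortex against GFP-BM CON cortex (8 of 9 above 0, exact p = 0.029), two-sided and not adjusted. Relative to that mean, GFP-BM CON differed from WT CON by 0.03 for *C1qa*, -0.05 for *C1qb* and 0.16 for *C1qc* (exact p of 0.63, 0.69 and 0.057).

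The counts of members were read against those of all genes. Of the 6 members tested, 2 were called for GFP-BM REPOP against WT CON in the cortex (*C3ar1* and *C4b*, both higher), where 0.764% of all genes were called. In the hippocampus 0 were called (0.0133% of all genes) and in the thalamus 0 (0.837%). At an unadjusted p under 0.05 the counts were 2, 1 and 2 of 6, beside 14.2%, 9.61% and 25.0% of all genes, and voom on the recovered reads called 2, 0 and 0 (0.844%, 0% and 0.326% of all genes). The groups did not overlap for 2 members in the cortex (9.50% of all genes), 1 in the hippocampus (3.98%) and 1 in the thalamus (18.7%). *C3ar1* is in the cortex calls and in each of these unadjusted and non-overlap counts. It passed the filter through the group in which it was high, so these counts are not independent of its difference.

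For GFP-BM CON against WT CON, 0 members were called by limma in the cortex, hippocampus and thalamus (0.312%, 0.0133% and 0% of all genes), with 1, 0 and 0 at an unadjusted p under 0.05 (15.9%, 23.7% and 20.7% of all genes) and none by voom (0.306%, 0% and 0%). The groups did not overlap for 2 members in the cortex (*C1qa* and *C1qb*, both lower) and 0 in the hippocampus and thalamus, where the shares of all genes were 15.9%, 13.7% and 23.0%. For GFP-BM REPOP against GFP-BM CON, 0 members were called in any of the 3 regions (0.0465%, 0.0266% and 0% of all genes), with 4, 0 and 1 at an unadjusted p under 0.05 (4.38%, 11.6% and 0.963% of all genes) and none by voom (0.0797%, 0% and 0%). Here 3 members did not overlap in the cortex (*C4b*, *C3ar1* and *C3*, against 3.10% of all genes), 0 in the hippocampus (6.84%) and 4 in the thalamus (*C1qa*, *C1qc*, *C4b* and *C3ar1*, against 4.59%), each with GFP-BM REPOP higher. The limit given for *C3ar1* applies to these counts as well.

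**Figure D2:**
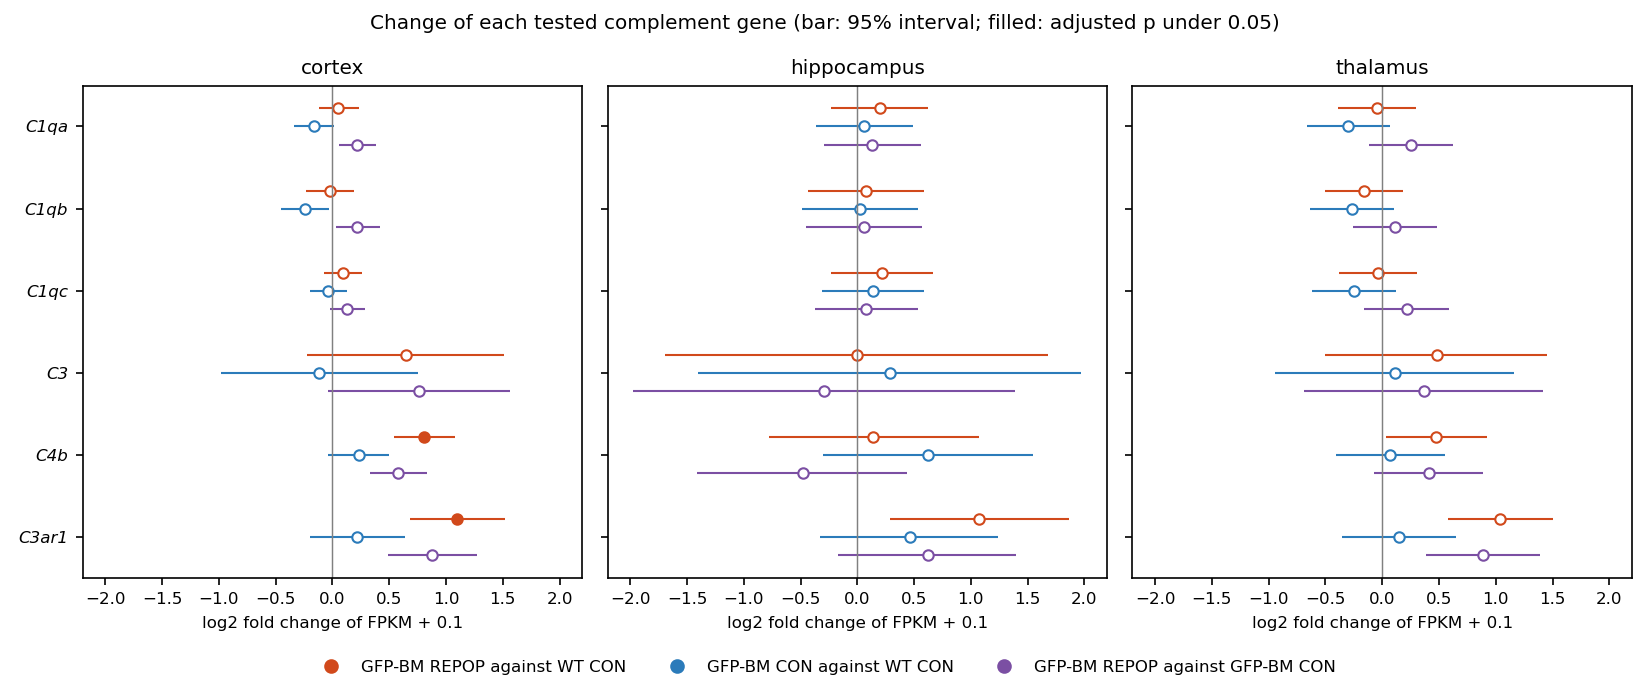
Differences on the log2(FPKM + 0.1) scale with 95% intervals of limma for the 6 members tested, in the 3 comparisons of treatment and 3 regions, with filled points where the adjusted p was under 0.05. C3ar1 lies between 1.04 and 1.10 for GFP-BM REPOP against WT CON in every region, while intervals of the C1q genes in that comparison all cross 0.

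The test of whether a difference itself differed between regions found none. Of 54 such contrasts for the members, 0 passed the threshold and 1 had an unadjusted p under 0.05. It was the *C4b* difference of GFP-BM REPOP from GFP-BM CON, lower in the hippocampus than in the cortex by 1.06 ± 0.45 (unadjusted p = 0.025, adjusted p = 0.5 by limma). The call in the cortex and its absence elsewhere are therefore no evidence of a difference between regions. The cortex had a median residual SD over genes of 0.119, the hippocampus one of 0.293 and the thalamus one of 0.227.

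In WT CON mice, *C4b* and the C1q genes were more abundant in the thalamus than in the cortex. *C4b* was at 9.53 ± 1.67 FPKM in the cortex (SD, n = 3), 22.9 ± 4.95 in the hippocampus (n = 4) and 22.0 ± 7.77 in the thalamus (n = 4), a difference of 1.24 ± 0.34 for hippocampus against cortex (2.37-fold, adjusted p = 0.0064 by limma) and 1.15 ± 0.34 for thalamus against cortex (adjusted p = 0.015). Without WT CON hippocampus replicate 2, which was low in hippocampus markers, the first was 1.12 (adjusted p = 0.022). The thalamus differed from the hippocampus by less than the spread for *C4b* (-0.09 ± 0.32, and 0.04 without that library). *C1qa* was at 42.3 ± 1.95, 54.1 ± 7.97 and 62.6 ± 16.8 FPKM in the same order of regions.

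The thalamus exceeded the cortex by 0.53 ± 0.18 for *C1qa*, 0.58 ± 0.20 for *C1qb* and 0.50 ± 0.18 for *C1qc* (adjusted p of 0.026, 0.034 and 0.039 by limma). Neighbouring regions in this order, cortex to hippocampus and hippocampus to thalamus, showed no difference past the threshold for the C1q genes (adjusted p of 0.11 to 0.61). Of the 6 members, 1 was called for hippocampus against cortex, 4 for thalamus against cortex and 0 for thalamus against hippocampus, where 36.7%, 29.6% and 17.4% of all genes were called. The 4 calls of thalamus against cortex fell to 0 without WT CON thalamus replicate 2, the library highest for *C1qa* and *C4b*, to 0 without cortex replicate 2 or 3, and to 1 without cortex replicate 1.

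Within the C1q group the ratios of the levels varied little between libraries. The log2 ratio of *C1qa* to *C1qb* averaged 1.46 ± 0.11 (SD over 34 libraries, 1.26 to 1.84), that of *C1qa* to *C1qc* 0.40 ± 0.10 and that of *C1qb* to *C1qc* -1.05 ± 0.14. C1q is assembled from equal numbers of the 3 chains, and these are ratios of transcripts per length, not of protein. Over 27 comparisons of these ratios between treatments, the largest difference was 0.21, and the smallest exact permutation p was 0.029, the lowest that 4 against 4 libraries allow (adjusted p = 0.72, two-sided). Tests of so few libraries could hardly reach an adjusted p under 0.05, so its absence is no evidence of equal ratios. Against WT CON, GFP-BM CON was lower without overlap for *C1qb* to *C1qc* in the cortex (-0.21) and *C1qa* to *C1qc* in the hippocampus (-0.08).

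After the mean of each region was subtracted, the levels of *C1qa* and *C1qc* had a Pearson r of 0.92 over the 34 libraries, *C1qa* and *C1qb* 0.90, and *C1qb* and *C1qc* 0.86. These are descriptions over libraries that share mice and treatments. By the same measure, the other gene most like *C1qa* was *Tyrobp* (0.86), the one most like *C1qb* was *Trem2* (0.87), both of which code for parts of a myeloid receptor complex, and the one most like *C1qc* was *S100a16* (0.88). *C3ar1* was most like *Lyz2*, *Adgre1* and *Mpeg1* (0.92 each), which code for lysozyme, the F4/80 antigen and perforin-2 of macrophages.

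For *C4b*, *Adamts4*, an oligodendrocyte protease, reached 0.74 and *Sec14l5* 0.73 after *C4a*. *C3* was most like *Tppp3* (0.76), *Lgals3*, which codes for galectin-3 (0.76), and *Serpind1* (0.74). The values for *C5ar1*, with *Lgals1* (0.71), *Dhrs3* (0.66) and *Wbp1* (0.65), were the lowest. *C3ar1* and the C1q genes had an r of 0.24 to 0.44 with each other, and *C4b* and *C3* one of 0.71.

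The members differed in their correlation with the myeloid marker lists. A list of 10 genes shared by microglia and bone marrow-derived myeloid cells, such as *Csf1r* and *Cd68*, differed between GFP-BM REPOP and WT CON by 0.08, 0.12 and 0.07 in the cortex, hippocampus and thalamus. In these bulk samples fewer cells of a type and less RNA per cell cannot be told apart. *C1qa* had an r of 0.83 with the mean of this list over 34 libraries and of -0.13 with the microglial list. *C3ar1* had an r of 0.57 with the shared list, -0.77 with the microglial list and 0.90 with the list of engrafted cells. The engrafted list was picked by the study on these samples, and some of the microglial markers were reported as lowered in them. *C3ar1* was itself higher in GFP-BM REPOP. Its r with both lists thus follows in part from the treatment groups and is no independent evidence.

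**Figure D3:**
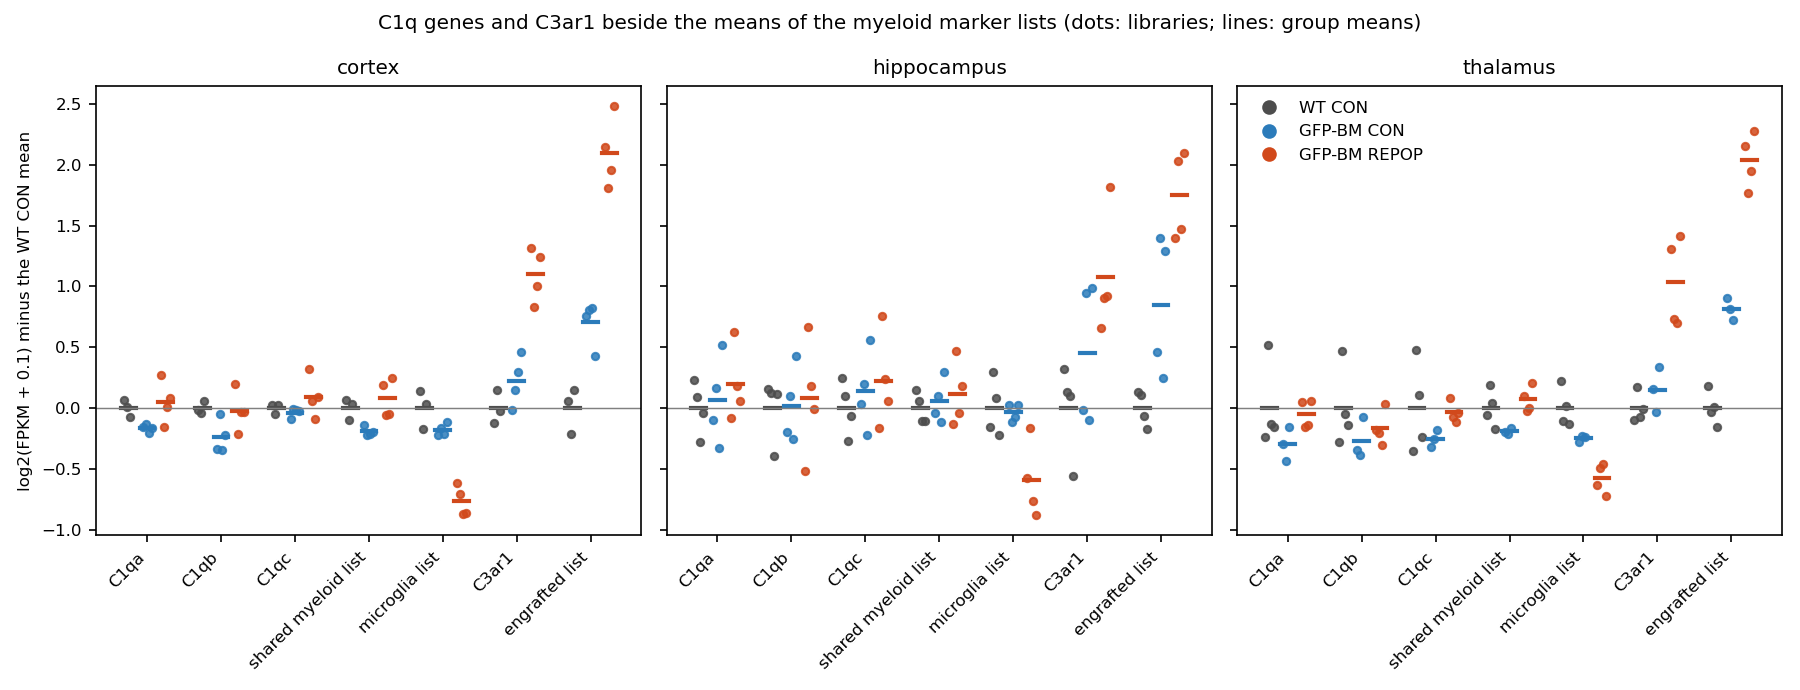
Levels of the C1q genes and C3ar1 and means of 3 myeloid marker lists on the log2(FPKM + 0.1) scale, less the WT CON mean of the region, with a dot for each library and a line for each group mean. GFP-BM REPOP libraries lie near 0 for the C1q genes and the shared list, below it for the microglia list and above it for C3ar1 and the engrafted list.

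Relative to the shared myeloid list, *C3ar1* in GFP-BM REPOP exceeded that in WT CON by 1.02, 0.96 and 0.97 on the log2 scale in the cortex, hippocampus and thalamus, without overlap in any region: all 12 GFP-BM REPOP libraries lay above every WT CON library of their region. The exact permutation p was 0.057, the lowest that 3 against 4 libraries allow, and 0.029 in each of the other regions, and the adjusted p over 63 such tests was 0.36, two-sided. With so few libraries these tests could hardly reach an adjusted p under 0.05. For *C4b* relative to the list, the differences were 0.73, 0.02 and 0.40 (exact p = 0.057 in the cortex). *C1qa* differed by -0.03, 0.08 and -0.12 (exact p of 0.74, 0.43 and 0.46).

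Single markers of the myeloid lists were called as well. For GFP-BM REPOP against WT CON, 4, 0 and 2 of 10 microglial markers were called lower, 7, 0 and 6 of 7 tested markers of engrafted cells higher, and 2, 0 and 1 of 4 tested border macrophage markers higher, in the cortex, hippocampus and thalamus. Of all genes, 0.764%, 0.0133% and 0.837% were called. The engrafted list was picked by the study on these samples, so its calls are no independent evidence. *Mrc1* is on both the engrafted and the border macrophage list. The mean log2 level of the engrafted list was -0.17 in WT CON cortex and 1.93 in GFP-BM REPOP cortex. Its summed level was 984 to 1076 FPKM in WT CON cortex and 1410 to 1742 in GFP-BM REPOP cortex. Few abundant genes thus make up most of this sum, and it does not measure engrafted cells. The summed level of the border macrophage list was 3.30 to 9.61 FPKM in WT CON cortex and 6.88 to 22.3 in GFP-BM REPOP cortex. No marker of these lists was at 0 in all libraries, and the part of these cells in the *C3ar1* and *C4b* differences was not tested.

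*C4b* and *C3* also varied with oligodendrocyte markers, whose mean over 5 genes ran from 5.41 to 8.0 among hippocampus libraries. Over 34 region-centred libraries *C4b* had an r of 0.66 and *C3* one of 0.65 with that mean, and within the 12 hippocampus libraries 0.81 and 0.76. Within the 11 cortex libraries the values were 0.24 and 0.57, and within the 11 thalamus libraries 0.18 and 0.26. In the cortex *C4b* had an r of 0.87 with the engrafted list and of 0.74 with the border macrophage list, over libraries that share the treatment groups. There its r was -0.77 with the microglial list and 0.75 with a list of 6 thalamus markers. Summed thalamus markers were 59.5, 66.7, 32.6 and 31.4 FPKM in GFP-BM REPOP cortex replicates 1 to 4. They were 24.7 to 35.8 in WT CON cortex and 26.9 to 29.7 in GFP-BM CON cortex. GFP-BM REPOP replicates 1 and 2 also had the highest cortex *C4b* (18.6 and 18.4 FPKM), and the part of thalamus tissue was not tested. In the cortex, where *C4b* rose, oligodendrocyte markers differed by -0.08 and astrocyte markers by 0.06 between GFP-BM REPOP and WT CON, with 0 of 5 and 0 of 7 called. In the thalamus these lists differed by 0.10 and 0.25 (exact permutation p of 0.34 and 0.029, two-sided and not adjusted), with no single marker called. The astrocyte means ran from 5.64 to 6.00 in WT CON thalamus and from 6.03 to 6.22 in GFP-BM REPOP thalamus, without overlap. The part of astrocytes in the *C4b* levels was not tested. Summed oligodendrocyte markers were 475 to 890 FPKM in WT CON hippocampus, 657 to 1858 in GFP-BM CON and 317 to 1234 in GFP-BM REPOP, and their part in the *C4b* levels was not tested. *C3* had an r of 0.57 with choroid plexus markers in the hippocampus, 0.10 in the cortex and -0.17 in the thalamus. The part of choroid plexus tissue in the *C3* levels was not tested.

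**Figure D4:**
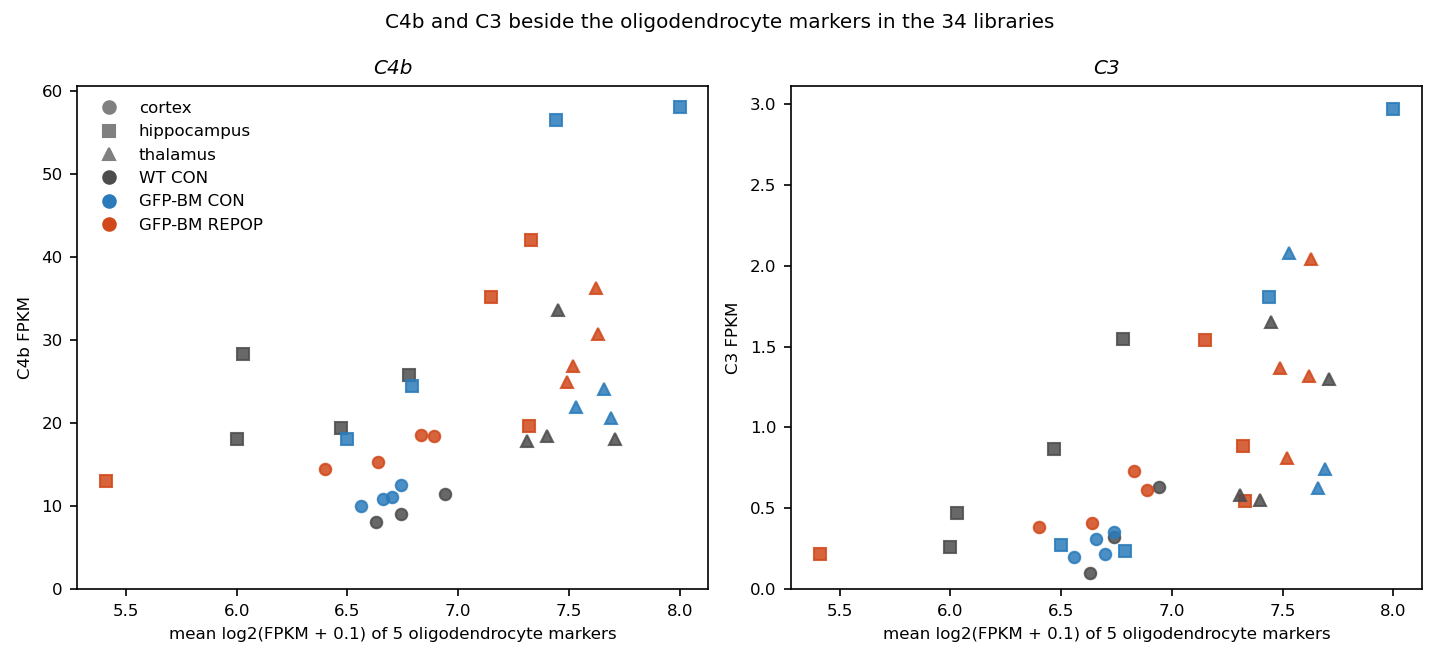
FPKM of C4b and C3 in the 34 libraries against the mean log2(FPKM + 0.1) of 5 oligodendrocyte markers, with the region given by the shape and the treatment by the colour. The hippocampus libraries span 5.41 to 8.0 on the marker axis, and those with the highest markers include the highest C4b (58.1) and C3 (2.97).

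Beyond the 7 members, 52 other complement genes were listed, of which 36 were in the table and 28 passed the filter. For GFP-BM REPOP against WT CON, 2 of the 28 were called in the cortex (1 higher, 1 lower), 3 in the thalamus (2 higher, 1 lower) and 0 in the hippocampus, beside 0.764%, 0.837% and 0.0133% of all genes, and 0 were called in the other 6 comparisons. The median difference of the 28 was 0.05, -0.04 and -0.01 in the 3 regions, beside 0.02, 0.01 and -0.05 for all genes. Of the 5 tested genes of the classical and lectin pathways, such as *C1ra* and *C4a*, 0 were called, as were 0 of 2 of the alternative pathway (*Cfb* and *Cfp*), 0 of 1 of the terminal pathway (*C8g*) and 0 of 5 fluid regulators.

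Among membrane regulators, *Cd59a*, which codes for an inhibitor of the membrane attack complex, was at 4.88, 4.13 and 4.42 FPKM in WT CON cortex and 7.71, 6.09, 7.06 and 7.05 in GFP-BM REPOP cortex. It rose by 0.63 there and by 0.85 in the thalamus, where it went from 7.78 ± 1.38 to 14.1 ± 2.55 FPKM (SD, n = 4 each, adjusted p of 0.024 and 0.047 by limma). GFP-BM CON lay between the groups, at 5.0 ± 0.630 FPKM in the cortex (n = 4) and 10.3 ± 0.857 in the thalamus (n = 3).

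*Cd46*, which codes for a cofactor for the cleavage of C3b and C4b, was at 0.703, 0.119, 0.162 and 0.189 FPKM in WT CON thalamus, 1.82, 2.12 and 1.21 in GFP-BM CON and 1.14, 2.40, 3.28 and 1.20 in GFP-BM REPOP. Both irradiated groups lay above WT CON without overlap, which in the thalamus held for 18.7% of all genes for GFP-BM REPOP and 23.0% for GFP-BM CON, in either direction. Among WT CON libraries only cortex replicates 1 and 3 reached 1 FPKM (1.11 and 1.62). *Cd46* thus passed the filter of 3 libraries through the irradiated groups, so its presence among the genes tested is not independent of its difference. The rise of GFP-BM REPOP over WT CON was 5.66-fold (adjusted p = 0.047 by limma), and GFP-BM CON differed from WT CON by 2.39 on the log2 scale (adjusted p = 0.059). After correction for GC content and length these log2 differences were 1.30 (adjusted p = 0.064) and 1.11 (adjusted p = 0.12). The *Cd59a* value in the thalamus was 0.54 (adjusted p = 0.12) after the same correction.

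*Csmd3*, a large membrane protein with complement control domains, was at 1.62 ± 1.01 FPKM in WT CON thalamus (SD, n = 4), 3.49 ± 0.445 in GFP-BM CON (n = 3) and 3.68 ± 0.580 in GFP-BM REPOP (n = 4), a difference of 1.40 for the last (adjusted p = 0.13 by limma). After correction for GC content and length that difference was 0.30 (adjusted p = 0.25 by limma). In the hippocampus, the 2 lowest differences among the other complement genes were those of *Serping1*, the C1 inhibitor (-0.83, adjusted p = 0.54), and *Itgam* (-0.69), and the 2 highest those of *Cd59a* (0.47) and *Csmd3* (0.47). Without the 3 libraries low in hippocampus markers they were -0.30, -0.59, 0.04 and 0.19 (adjusted p of at least 0.72). Over all hippocampus libraries, the correction for GC content and length gave -0.74, -0.68, 0.27 and 0.02 in the same order. *Vtn*, which codes for vitronectin, differed by -0.48 in the thalamus (adjusted p = 0.18), and by -0.24 after that correction (adjusted p = 0.25 by limma).

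*Itgam* and *Itgb2* code for the chains of complement receptor 3, which binds the C3 fragment iC3b. *Itgam* was at 4.89, 4.58 and 4.62 FPKM in WT CON cortex, 3.24, 3.43, 3.36 and 4.13 in GFP-BM CON cortex and 3.37, 3.47, 2.59 and 2.48 in GFP-BM REPOP cortex. In GFP-BM REPOP it fell by 0.65 there and by 0.58 in the thalamus (adjusted p of 0.047 and 0.048 by limma). GFP-BM CON also lay below WT CON without overlap in both regions (-0.40 and -0.37, unadjusted p of 0.0097 and 0.0095, adjusted p of 0.18 and 0.15), and GFP-BM REPOP differed from GFP-BM CON by -0.25 and -0.21 (adjusted p = 1 each). Between GFP-BM CON and WT CON, 15.9% of all genes in the cortex and 23.0% in the thalamus did not overlap, in either direction. In the hippocampus it was at 5.05, 5.04, 5.18 and 5.28 FPKM in WT CON, 5.05, 4.98, 5.11 and 5.26 in GFP-BM CON and 2.86, 3.48, 3.32 and 2.93 in GFP-BM REPOP. All 4 GFP-BM REPOP libraries lay below the other 8 (-0.69, unadjusted p = 7.6e-05, adjusted p = 0.084). GFP-BM REPOP did not overlap WT CON there for 3.98% of all genes, and GFP-BM CON for 6.84%, in either direction. *Itgb2* differed by -0.22, -0.25 and -0.38 in the 3 regions (adjusted p of 0.68, 0.68 and 0.23), and by 0.09 in the hippocampus without the 3 libraries low in hippocampus markers. After correction for GC content and length, the *Itgb2* values in the cortex, hippocampus and thalamus were -0.20, -0.11 and -0.19. *C3ar1* and *Itgam*, both receptors for products of C3, thus lay on opposite sides of WT CON in GFP-BM REPOP mice. The study itself names *Itgam* among the genes lowered in these samples, so its fall here is no independent result. Among 11 fits that each left out 1 library of the region, the calls held in 6 for *Cd59a* and 3 for *Itgam* in the cortex, and in 2 each for *Cd46*, *Cd59a* and *Itgam* in the thalamus. Over these and the other alternatives, the adjusted p of the 5 calls ran from 0.002 to 1.

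**Figure D5:**
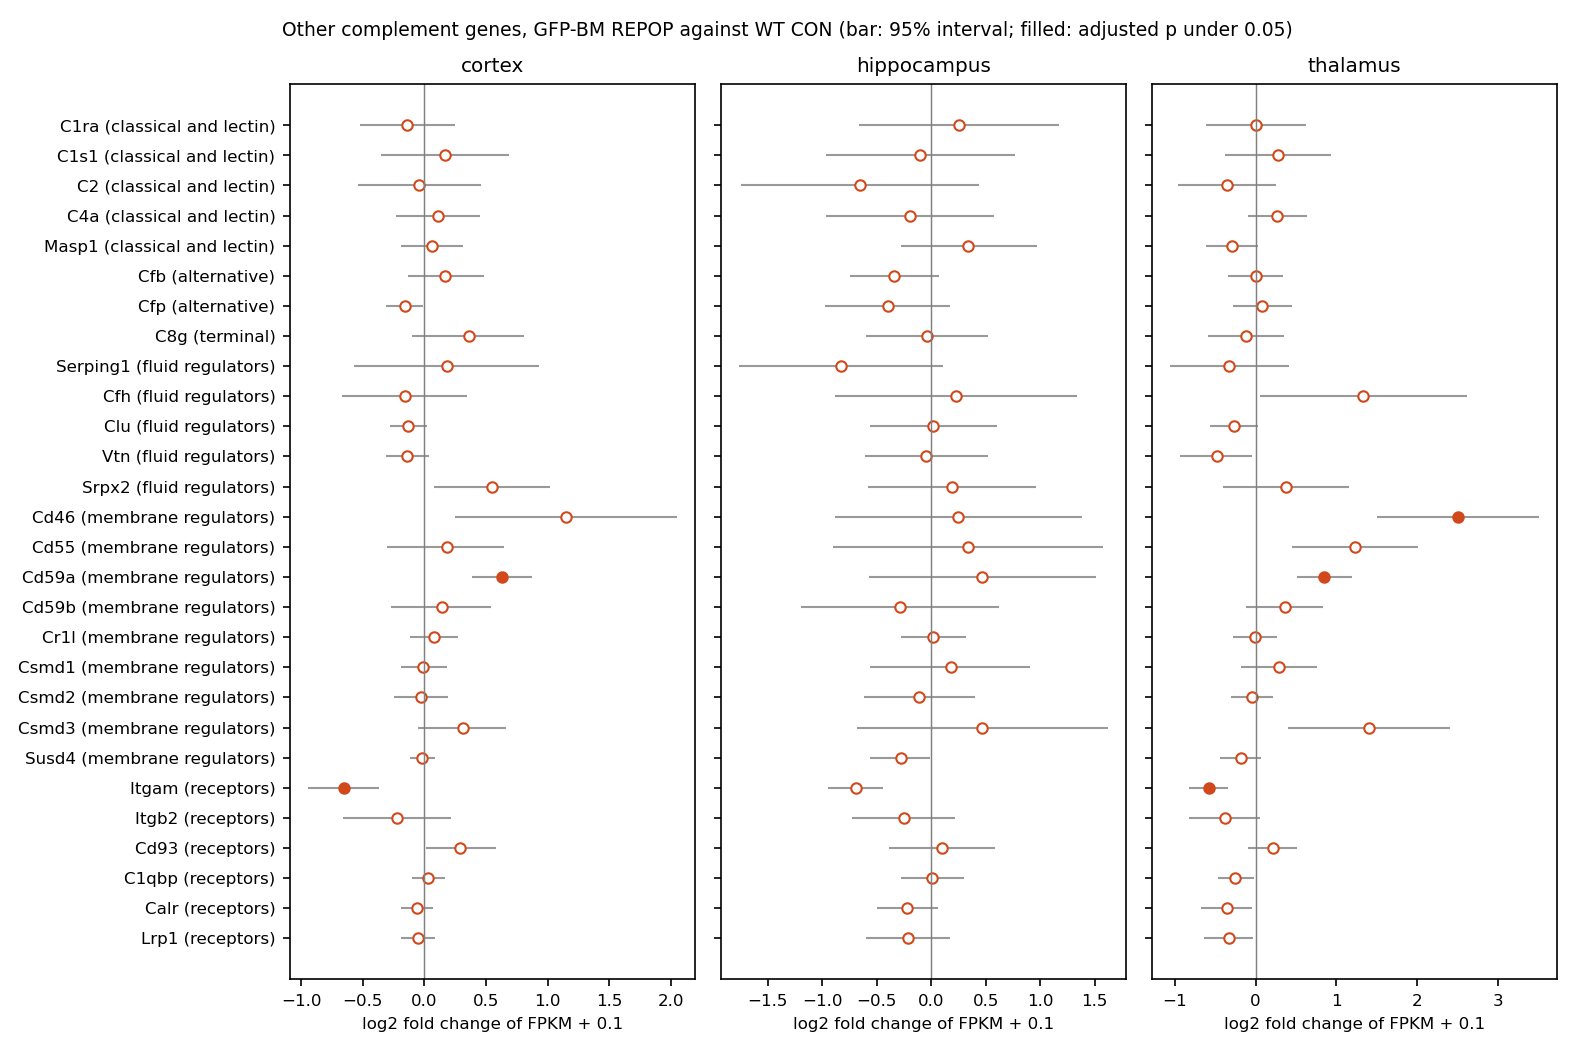
Differences of GFP-BM REPOP from WT CON on the log2(FPKM + 0.1) scale for the 28 other complement genes tested, by region, with 95% intervals and filled points for genes called by limma. Each panel has its own axis range. Cd59a is called higher in the cortex and thalamus, Cd46 higher in the thalamus and Itgam lower in the cortex and thalamus.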

How the data were processed

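Per the methods of the study, the authors aligned paired 150-base reads of RNA with a RIN of at least 7 with STAR, counted them per gene with featureCounts of Rsubread, and computed levels per length with edgeR and limma; the labels name build mm10. The authors deposited FPKM values per gene and library on a linear scale, without counts. Whole reads were recovered from the steps of the values for 100.00% of 16389 genes within 0.01 reads, and gave the depth per library (17085018 to 26010509). Of all values, 0.32% were 0. The level of a gene of few reads is limited by counting error, which the intervals over mice include.

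Groups, regions and animal numbers came from the labels. Genes with an FPKM of at least 1 in at least 3 libraries (15053) were tested on log2(FPKM + 0.1) by limma-trend (R 4.3.3, limma 3.58.1) in a fit per region of 3 groups, two-sided, called at a Benjamini-Hochberg adjusted p under 0.05 over all genes. Contrasts between regions came from a single model of the 9 groups in which libraries of 1 animal formed a block (correlation -0.04). Single ratios were compared by exact permutation tests. The script was tested on simulated data. Tables were made with pandas 2.3.3 and numpy 2.4.6 under Python 3.11.15, exact tests with scipy 1.17.1, and figures with matplotlib 3.10.9.

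The members, gene lists and marker lists were chosen with earlier results of these data known. Named beside the members were other complement genes that were called, or were among the 2 largest rises or 2 largest falls of GFP-BM REPOP against WT CON in a region, the 3 genes most correlated with each member after centring by region, and markers that a result turns on. Positions and promoters came from RefSeq on GRCm38.p6, matched by gene ID and symbol. Alternatives covered the pseudocount, the filter, normalization, library weights, a correction for GC content and length (13911 of the tested genes, 92.4%, had both), a replicate block, the samples in the fit and each library left out in turn. P-values measure the spread between mice.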

Additional observations from a re-analysis of the deposited data

Results flagged for a closer look

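Of 49 groups of 4 libraries that were searched for a library far from the others of its group, 3 had one, and chance flags about 1 in 20 groups. WT CON thalamus replicate 2 was high for *C1qa* (87.7 FPKM against 51.9 to 55.7 in the other 3) and for *C4b* (33.6 FPKM against 17.8 to 18.4). WT CON hippocampus replicate 3 was low for *C1qb* (15.3 FPKM). No difference between treatments was found to differ between regions, the smallest adjusted p among 54 contrasts being 0.5 by limma.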

How the results depend on the processing

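Of 1644 values recomputed for the members under the alternatives, 1533 kept their direction and their side of the threshold, 27 lost a call, 9 gained one and 75 changed sign. No called value changed sign. The *C4b* rise in the cortex was called in 12 of 14 alternatives and 11 of 11 fits with 1 library left out, and that of *C3ar1* in 9 of 13 and 6 of 11. The 2 members called for GFP-BM REPOP against WT CON in the cortex became 1 when genes had to average 1 FPKM in their region (which leaves *C3ar1* out), with quantile normalization (*C3ar1* adjusted p = 0.065), and became 0 with only the 2 groups compared or all 9 groups in one fit. With 1 library left out they were 1 to 2. In the hippocampus the 0 became 1 with all 9 groups in one fit (*C3ar1*, adjusted p = 0.022). In the thalamus the 0 became 1 with a pseudocount of 1, without the filter, with a prior without trend and with all 9 groups in one fit (*C3ar1* in each), 2 with array quality weights (*C4b* at 0.035 and *C3ar1* at 0.043) and 0 to 1 with 1 library left out. The 4 members called for thalamus against cortex in WT CON became 0 to 4. Where fewer samples or genes do not account for a lost or gained call, the cause was not tested. The edgeR test planned on recovered reads was not run, and voom on these reads took its place. That alternative, the filter on biotype, the hippocampus libraries with high hippocampus markers and the alternatives for ratios were chosen after seeing the data.

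The replicate numbers did not pair the samples. The correlation of deviations between libraries of the same number had medians of 0.03 (cortex), -0.16 (hippocampus) and -0.20 (thalamus), with single pairs as low as -0.43, and the treatment groups hold different mice. With the replicate block, the 2 members called in the cortex became 1 (*C4b* at 0.84, adjusted p = 0.022, and *C3ar1* at 1.04, adjusted p = 0.13), and no other call of a member changed.

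Sign changes all concerned small or widely spread differences. Corrected for GC content and length, GFP-BM REPOP against WT CON gave 0.02 for *C1qb* in the cortex, 0.08 for *C3* in the hippocampus, and 0.22, 0.10 and 0.23 for *C1qa*, *C1qb* and *C1qc* in the thalamus. For GFP-BM CON against WT CON it gave 0.01 for *C1qc* in the cortex, -0.04 for *C3ar1* in the hippocampus, and 0.00, 0.02 and -0.44 for *C1qb*, *C1qc* and *C3ar1* in the thalamus, and for the hippocampus of GFP-BM REPOP against GFP-BM CON -0.06 for *C1qb* and -0.04 for *C1qc*. With quantile normalization, GFP-BM CON against WT CON gave -0.15 for *C3* and -0.04 for *C3ar1* in the hippocampus and -0.31 for each in the thalamus, GFP-BM REPOP against WT CON in the thalamus gave 0.08 for *C1qa* and 0.07 for *C1qc*, and thalamus against hippocampus in WT CON gave -0.16 for *C3ar1*. With array quality weights, the thalamus of GFP-BM REPOP against WT CON gave 0.09 for *C1qa* and 0.13 for *C1qc*, the hippocampus -0.04 for *C1qb*, the hippocampus of GFP-BM REPOP against GFP-BM CON -0.09 for *C1qb* and -0.01 for *C1qc*, and GFP-BM CON against WT CON in the thalamus -0.07 for *C3*. Median-ratio scaling gave 0.01 for *C3* in the hippocampus and 0.01 for *C1qc* in the thalamus for GFP-BM REPOP against WT CON, a pseudocount of 1 gave 0.00 for *C3* in the hippocampus and 0.01 for *C1qa* relative to the shared myeloid list in the cortex, and voom gave -0.05 for *C1qb* in the hippocampus of GFP-BM CON against WT CON.

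With 1 library left out in turn, values that changed sign ran as follows. For GFP-BM REPOP against WT CON they ran from -0.02 to 0.12 for *C1qa* and from -0.10 to 0.05 for *C1qb* in the cortex, from -0.12 to 0.28 for *C1qb*, from -0.11 to 0.45 for *C4b* and from -0.38 to 0.42 for *C3* in the hippocampus, and from -0.12 to 0.13 for *C1qa* and from -0.15 to 0.12 for *C1qc* in the thalamus. Relative to the shared myeloid list they ran from -0.08 to 0.02 for *C1qa* in the cortex and from -0.28 to 0.25 for *C4b* in the hippocampus. For GFP-BM CON against WT CON they ran from -0.60 to 0.32 for *C3* in the cortex, from -0.09 to 0.19 for *C1qa*, from -0.12 to 0.11 for *C1qb* and from -0.29 to 0.78 for *C3* in the hippocampus, and from -0.38 to 0.41 for *C3* and from -0.01 to 0.29 for *C4b* in the thalamus. For the hippocampus of GFP-BM REPOP against GFP-BM CON they ran from -0.01 to 0.28 for *C1qa*, from -0.13 to 0.26 for *C1qb*, from -0.10 to 0.22 for *C1qc* and from -0.78 to 0.29 for *C3*. For thalamus against hippocampus in WT CON they ran from -0.32 to 0.04 for *C4b* and from -0.02 to 0.26 for *C1qc*.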
